A study of Mus musculus with 110 samples.

Results

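The Ighd2 family, known as DSP2, is the largest family of D segments in the mouse immunoglobulin heavy-chain (Igh) locus, and it was followed here through 98 libraries of joins made to a JH4 bait. The members are 8 D segments at fixed positions on chromosome 12, and a junction was given to a member when it lay within 100 bp of that position. They are 8 of the 29 D segments and of the 184 D and VH segments found in these libraries, and they took 1029292 of 3602400 junctions (28.57%). D segments on either side of the family served for comparison: Ighd4-1, also called DQ52, which lies nearest to JH, and Ighd1-1, also called DFL16.1, which lies at the far end of the array.

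The method was linear-amplification translocation sequencing of V(D)J joins from a fixed primer at JH4, in which each read gives the position on the other side of the join. All cell lines were v-Abl transformed pro-B lines that lack RAG2 and carry an Emu-Bcl2 transgene. They received RAG2 by nucleofection and STI-571, an Abl inhibitor that arrests the cells and so lets V(D)J recombination proceed, at 3 uM for 4 days. Each line was studied without further treatment (NT) or with the auxin IAA at 500 uM, given from 6 h before the inhibitor and together with it. The lines were the parental line (4 replicates in each treatment), a line with an Ostir1 knock-in only (4 and 4), a line with the CTCF-mAID-GFP tag only (4 and 4), the CTCF degron line (6 and 6), the Rad21 degron line (3 and 3) and the Rad21 degron line with the IGCR1 region deleted (4 and 4). Ostir1 is the plant auxin receptor that marks degron-tagged proteins for breakdown, CTCF is a DNA-binding protein that stops chromatin loops, Rad21 is a subunit of the cohesin ring that extrudes them, and IGCR1 is a control element with CTCF sites that separates the VH part of the locus from the D array. The labels of the CTCF-tag line and of the degron lines do not name Ostir1. The remaining group was 6 replicates of pro-B cells from the bone marrow of wild-type 129SV mice, sorted as B220+CD43+IgM- cells. RAG2 is supplied from outside in the lines, whereas bone marrow cells make their own. The sort is not named for bone marrow replicate 1, and the labels of replicates 4, 5 and 6 also list STI-571. The sources do not say whether replicates were separate cultures or animals, so the spread between them may be technical, and p-values measure that spread alone.

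V(D)J recombination joins a D segment to a JH segment first and then a VH segment to the product. RAG cuts beside recombination signals, each made of a conserved heptamer and nonamer with a spacer between them, and a D segment carries one signal on each side. The signal on the JH side of D is lost when D joins JH, and the signal on the VH side stays in the product, where the reads of this assay cross it. In the loop extrusion view of the locus, cohesin draws D segments past the RAG-bound recombination centre at JH, which makes the D array a row of like targets at graded distances.

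The sequences below are those read next to the join, from the nonamer through spacer and heptamer into the coding bases, on the coding strand and 5′ to 3′. They are consensus sequences of the plus-orientation reads at each position, and capitals mark the nonamer and the heptamer. They are shown because the 8 members share almost all of the signal on the VH side, whereas Ighd4-1 does not. Each member is called here by its distance from the end of the bait, together with its label where the family list gives one.
19.2-kb segment: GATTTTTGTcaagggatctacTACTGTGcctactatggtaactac
24.6-kb segment: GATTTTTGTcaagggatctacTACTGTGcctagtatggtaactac
29.3-kb segment: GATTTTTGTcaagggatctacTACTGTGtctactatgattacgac
34.3-kb segment: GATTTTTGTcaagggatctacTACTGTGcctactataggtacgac
39.0-kb segment: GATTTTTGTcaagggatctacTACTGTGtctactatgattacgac
Ighd2-6 at 43.6 kb: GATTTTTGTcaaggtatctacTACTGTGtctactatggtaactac
Ighd2-7 at 52.3 kb: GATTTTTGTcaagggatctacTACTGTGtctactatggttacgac
Ighd2-3 at 56.7 kb: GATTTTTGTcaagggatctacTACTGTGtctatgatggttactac
Ighd4-1 at 2.0 kb: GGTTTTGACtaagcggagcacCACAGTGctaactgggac
Ighd1-1 at 63.4 kb: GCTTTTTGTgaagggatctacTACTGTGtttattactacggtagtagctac

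All 8 members had 17 coding bases, the same nonamer, the same heptamer and a spacer of 12 bases, and the spacer differed in Ighd2-6 alone. Their coding sequences differed from each other at 0 to 6 positions. With positions counted from 1 at the 5′ end of the coding bases, the 19.2-kb segment differed from the 24.6-kb segment by C5G and from Ighd2-6 by C1T. The 29.3-kb segment differed from Ighd2-7 by A10G. The 29.3-kb and 39.0-kb segments had identical coding bases and shared the first 45 bases read from the join, so that reads were told apart there by 3 differences in the first 100 bases. The signal on the JH side, the one cut in these joins, is not present in the reads, so nothing can be said of it.

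The positions were 114690286, 114695747, 114700407, 114705399, 114710077, 114714725 (Ighd2-6), 114723458 (Ighd2-7) and 114727777 (Ighd2-3) on chromosome 12, in the coordinates of the hybrid genome that the authors aligned to, which joins mm9 with another Igh sequence. Neighbouring members lay 4319 to 5461 bp apart, except for 8733 bp between Ighd2-6 and Ighd2-7. Set against the 6 Ighd2 genes annotated in mm9, Ighd2-3 and Ighd2-7 matched their namesakes in every coding base. The segment labelled Ighd2-6 matched the coding bases of mm9 Ighd2-8 instead, with 98.67% identity over the 150 bases next to the join, and its label is kept here only as a name. The 29.3-kb and 39.0-kb segments both matched mm9 Ighd2-4, and the 19.2-kb, 24.6-kb and 34.3-kb segments were nearest to mm9 Ighd2-5, at 1, 2 and 3 coding differences.

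The libraries differed in depth and in the way they were made, and several results below touch on this. Replicates held 1263 to 231023 junctions, and 254 to 64414 at the family. The lowest totals were in the Rad21 degron line with IAA, at 1263 to 2492, and in its IGCR1-deleted form with IAA, at 1608 to 2668. Read names placed the replicates in 11 sequencing runs. Most replicates had an a and a b library with different lengths of bait sequence, and their junctions were summed. The family share was higher in b than in a in 33 of 42 replicates, by a mean of 0.967 percentage points (SD 1.47), and Ighd2-3 was higher in b in 38 of 42. Reads without molecular tags are not independent molecules: counting identical junctions once kept 54.4% to 96.0% of the family's junctions in untreated parental replicates and 91.5% to 95.2% in untreated CTCF degron replicates. In 4 libraries titled IAA, 3 of the CTCF degron and 1 of the IGCR1-deleted line, the treatment label names no IAA, and the title was followed.

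Along the array, use of the family followed distance poorly: the members at both ends were used most and those between them least. In untreated parental cells Ighd2-3, the farthest member, took 6.25%, 6.16%, 8.92% and 9.07% of all junctions in the 4 replicates. The 19.2-kb segment, the nearest, took 6.65%, 5.95%, 6.02% and 5.74%. Ighd2-7, next to Ighd2-3 but 4319 bp nearer, took 0.886%, 0.854%, 0.796% and 0.823%. The values for Ighd2-3 and Ighd2-7 did not overlap.

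As a share of the family in untreated parental cells, the order was Ighd2-3 at 30.6%, the 19.2-kb segment at 24.6%, the 24.6-kb segment at 12.8%, Ighd2-6 at 12.1%, the 34.3-kb segment at 8.49%, the 29.3-kb segment at 4.36%, the 39.0-kb segment at 3.62% and Ighd2-7 at 3.40%. Neighbours in this order whose replicate ranges overlapped were Ighd2-3 and the 19.2-kb segment, the 24.6-kb segment and Ighd2-6, and the 39.0-kb segment and Ighd2-7. The other neighbours did not overlap. The 29.3-kb and 39.0-kb segments, alike in coding bases and in the signal on the VH side, took 4.36% ± 0.0929 and 3.62% ± 0.665 (SD, n = 4), and the 29.3-kb segment was higher in each of the 4 replicates.

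The other cell-line groups were much alike in this. By group means, the highest member took 6.56 to 11.7 times the share of the lowest across the 12 groups of cell lines, and the 19.2-kb segment or Ighd2-3 was the highest in all of them. Ighd2-7 was the lowest in 10, and the 39.0-kb segment in the other two, both IAA groups of the Rad21 degron lines. In the Rad21 degron line with IAA the 24.6-kb segment ranked second by its mean, above Ighd2-3, but lay above it in only 1 of 3 replicates. It took 37.6%, 12.6% and 11.2% of the family there, against 16.9%, 21.65% and 19.4% for Ighd2-3. The ratio of highest to lowest ran from 6.62 to 49.99 over the 3 shallow replicates of this group. Pearson's correlation of the group mean share with distance lay between -0.388 and 0.145 over the 8 positions, for the 13 groups; the members share libraries and primer, and the values are given as a description.

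Bone marrow pro-B cells used the family far more evenly. Ighd2-3 took 16.1% of the family and the 34.3-kb segment 16.0%, and Ighd2-7 was again the lowest, at 8.25% ± 0.496 (SD, n = 6). The highest member took 1.95 times the share of the lowest. Within this group, neighbours in the order overlapped throughout, except that Ighd2-6 lay above the 19.2-kb segment in 6 of 6 replicates.

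**Figure D1:**
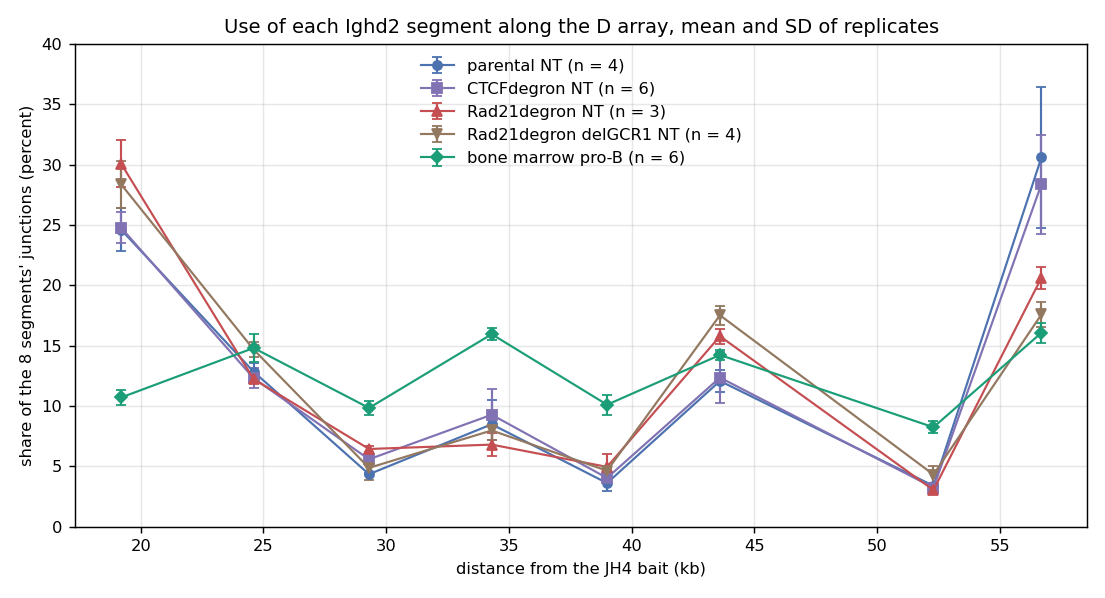
Share of the family's junctions at each Ighd2 segment (percent, vertical axis) against its distance from the JH4 bait (kb, horizontal axis) in 5 groups. Points are means over replicates and bars are SD; the 4 cell-line groups are high at both ends of the array and low at 52.3 kb, and bone marrow pro-B cells run between 8.25% and 16.1%.

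The family as a whole took 24.8% ± 0.768 of all junctions in untreated parental cells (SD, n = 4) and 26.7% of those in the D array, the stretch from Ighd4-1 to Ighd1-1. The replicates were at 24.9%, 23.7%, 25.1% and 25.4%. Ighd1-1 alone took 60.3% to 61.6% in the same replicates. In bone marrow the family took 40.5% ± 3.29 of all junctions and 60.7% ± 1.60 of the D array (n = 6), with no overlap with the parental line on either scale. The other untreated lines were at 29.8% with the Ostir1 knock-in, 21.4% with the CTCF tag, 20.97% in the CTCF degron, 33.6% in the Rad21 degron and 20.2% in its IGCR1-deleted form. These shares describe the groups and were not tested, because the members were chosen with earlier results known.

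**Figure D2:**
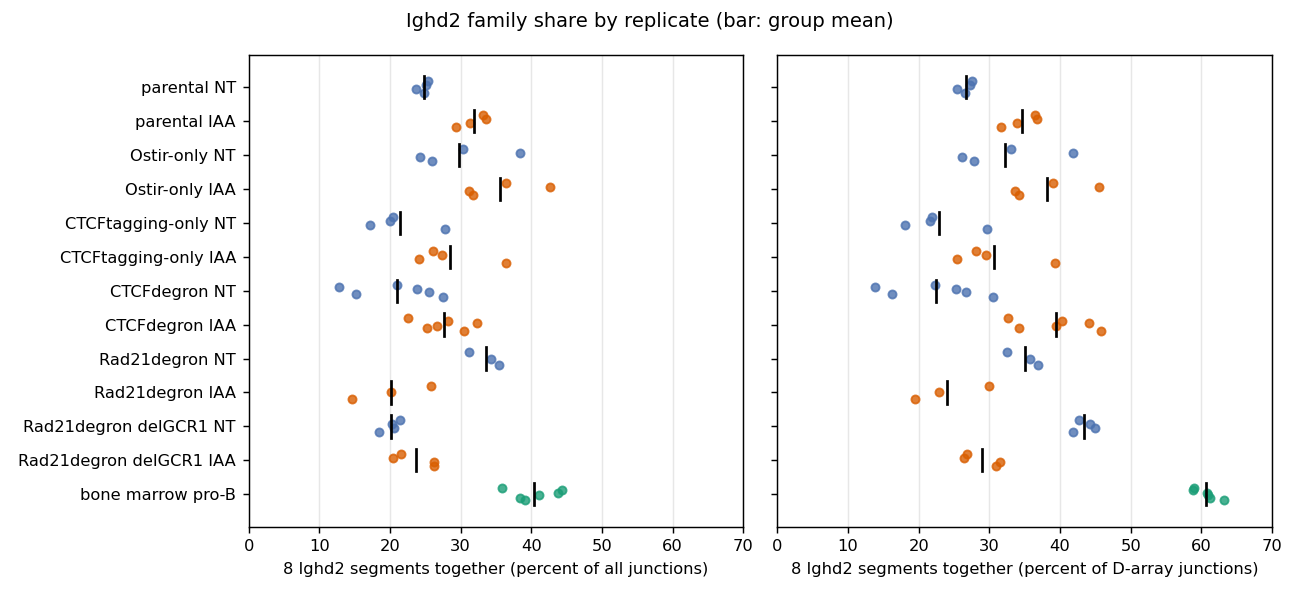
The 8 Ighd2 segments together in every replicate, as a percent of all junctions (left) and of D-array junctions (right), by group. Points are replicates and bars are group means; bone marrow replicates, at 58.9% to 63.2% of the D array, lie above every cell-line replicate.

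Single members were tested with limma on tallies of all segments, scaled to all junctions of the replicate, and called at a Benjamini-Hochberg adjusted p under 0.05 over all segments tested. Since a share falls when other joins gain, each result is also given on the scale of D-array junctions where this changes it. Several of the comparisons below share the untreated parental replicates, and several share the untreated Rad21 degron replicates, differences between IAA effects included, so those comparisons are not independent of each other.

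Bone marrow pro-B cells had more joins at the 6 inner members than untreated parental cells and fewer at both ends. The 39.0-kb segment was at 4.23%, 4.26%, 4.19%, 4.07%, 4.01% and 3.68% in bone marrow and 1.06%, 0.969%, 0.831% and 0.721% in the parental line. Every bone marrow replicate lay above every parental one, and the log2 fold change was 2.33 (SE 0.124, adjusted p = 2.61e-18). Ighd2-7 rose by 2.02 (SE 0.124), the 29.3-kb segment by 1.84, the 34.3-kb segment by 1.81, Ighd2-6 by 0.97 and the 24.6-kb segment by 0.91.

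The end members went the other way. The 19.2-kb segment was at 4.17%, 3.86%, 4.08%, 4.89%, 4.86% and 4.14% in bone marrow, below all 4 parental values, and fell by 0.48 (SE 0.0856, adjusted p = 2.78e-06). Ighd2-3 fell by 0.40 (SE 0.0934, adjusted p = 0.000139), with 5.54% to 7.19% in bone marrow overlapping the parental values. Of 143 segments tested, 98.6% were called, 95.8% higher and 2.80% lower, with a median log2 change of 5.34 over all segments, most of them VH, against 1.39 over the members. Scaled to the D array the inner 6 rose (the 39.0-kb segment by 2.84), as did 138 of the 143 segments, and the end members were at 0.01 (SE 0.0649) and 0.03 (SE 0.0634), neither called. With scale factors taken from the median segment instead, the median over all segments was 3.20, and 6 members fell and none rose, where 15 segments of 143 fell and most rose. Bone marrow and parental replicates shared no sequencing run.

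Among untreated lines, the Rad21 degron cells had more family joins than the parental cells: 6 of 8 members rose, where 42.3% of the 26 segments tested rose, 30.8% fell and 73.1% were called in either direction. The 39.0-kb segment was at 2.05%, 1.31% and 1.65% in the Rad21 degron line, above all 4 parental replicates, with a log2 change of 1.04 (SE 0.171, adjusted p = 0.000193). The 29.3-kb segment rose by 0.99, Ighd2-6 by 0.86, the 19.2-kb segment by 0.75, the 24.6-kb segment by 0.39 and Ighd2-7 by 0.32. Ighd2-3, at 7.32%, 7.39% and 6.14%, overlapped the parental replicates, with a difference of -0.25 (SE 0.162, adjusted p = 0.165), and was called lower when parental replicate 1 or 2 was left out. These lines shared no sequencing run, and with the run as a random block 5 members rose, where 8 segments rose and 8 fell; the call at Ighd2-7 was lost.

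Untreated CTCF degron cells differed little from parental cells at the family. Ighd2-3 fell by 0.58 (SE 0.189, adjusted p = 0.00463), and none of the other 7 members was called, where 11.8% of 34 segments fell, 50% rose and 61.8% were called in all. With the median segment as scale 5 members fell, and over all segments 16 rose and 10 fell, against 17 and 4. The 6 replicates ranged from 3.51% to 9.92% for Ighd2-3 and overlapped the parental replicates. The spread within the CTCF degron group was wide, the family running from 12.8% to 27.6%, and the call was lost with limma's trend in place of weights. These groups also shared no run.

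With IGCR1 deleted, untreated Rad21 degron cells had a lower family share of all junctions and a higher one within the D array. The family was at 18.5%, 20.6%, 20.4% and 21.5% of all junctions with the deletion and 35.4%, 34.3% and 31.2% without it. Of D-array junctions it was 43.4% ± 1.40 (n = 4) with the deletion and 35.1% ± 2.26 (n = 3) without. The groups did not overlap on either scale. The D array itself held 5958 of 13508 junctions in replicate 1 of the deleted line and 44641 of 46510 in replicate 1 of the undeleted line, and VH joins made up 6969 and 829 of the junctions in these replicates.

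On the scale of all junctions 7 of 8 members fell, where 55% of the 20 segments tested fell, 30% rose and 85% were called. The 29.3-kb segment fell most, by 1.10 (SE 0.133, adjusted p = 2.79e-05), from 2.33%, 2.10% and 2.06% to 1.04%, 0.953%, 0.732% and 1.21%. Ighd2-3 fell by 0.97, the 39.0-kb segment by 0.86, the 19.2-kb segment by 0.84, Ighd2-6 by 0.59, the 34.3-kb segment by 0.51 and the 24.6-kb segment by 0.48. Ighd2-7 was at -0.29 (SE 0.156, adjusted p = 0.0999). On the D-array scale 4 members rose and none fell: Ighd2-7 by 0.75, the 24.6-kb segment by 0.56, the 34.3-kb segment by 0.52 and Ighd2-6 by 0.45, while the 29.3-kb segment was at -0.06 (SE 0.146). Over all segments 12 rose and 1 fell on that scale, against 6 and 11 on the scale of all junctions and 6 and 5 on the median-segment scale, where 4 members fell. The deleted line had b libraries only, and with b libraries alone in both lines 7 members again fell. The lines shared no run.

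The family share was higher with IAA in the parental line, which carries no degron. The family went from 24.8% ± 0.768 to 31.9% ± 1.92 of all junctions (n = 4 each), and within the 1 sequencing run that held both treatments it was 25.3% without and 33.4% with IAA (2 replicates each). The 19.2-kb segment was at 7.96%, 8.48%, 8.88% and 8.80% with IAA, above all 4 untreated replicates, and rose by 0.54 (SE 0.0586, adjusted p = 0.000115). The 29.3-kb segment rose by 0.66, from 1.07%, 1.01%, 1.12% and 1.11% to 1.51%, 1.79%, 1.71% and 1.89%.

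In all, 7 of 8 members rose, where 25% of 32 segments rose, 3.12% fell and 28.1% were called. On the median-segment scale 3 members rose, with 3 segments higher and 2 lower in all. The 39.0-kb segment rose by 0.65, the 34.3-kb segment by 0.55, Ighd2-6 by 0.35, Ighd2-7 by 0.34 and the 24.6-kb segment by 0.27. Ighd2-3 was at 0.17 (SE 0.145, adjusted p = 0.45) and was called when the sequencing run entered as a block, at 0.20 (SE 0.0767, adjusted p = 0.0419), and when the replicate number did, at 0.20 (SE 0.0634, adjusted p = 0.00687). Only 1 run held both treatments, with 2 replicates of each, so the run block rests on these. Same-numbered replicates were not shown to pair in this line, with correlations of 0.0486 to 0.294, each below that with another number. When identical junctions were counted once, only the 19.2-kb segment was called.

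The Ostir1 line and the CTCF-tag line showed changes of like size, and there the calls turned on whether same-numbered replicates were paired. In the Ostir1 line the 29.3-kb segment rose by 0.66 (SE 0.15, adjusted p = 0.022), from 1.14%, 1.14%, 1.36% and 1.16% to 1.67%, 1.73%, 2.19% and 2.05%, the groups not overlapping. It was the only segment of 23 called (4.35%), and it was not called when untreated replicate 2 or 4, or IAA replicate 2, 3 or 4, was left out. With the replicate number as a block, 7 of 8 members rose, where 7 of 23 segments rose and 5 fell in all, the 19.2-kb segment by 0.40 (SE 0.0437, adjusted p = 0.000251) and Ighd2-6 by 0.37 (SE 0.0434, adjusted p = 0.000251); Ighd2-3 was at 0.05 (SE 0.0722, adjusted p = 0.57). With the sequencing run as a block 6 members rose, and over all segments 6 rose and 5 fell.

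In the Ostir1 line Ighd2-3 and Ighd2-6 differed between sequencing runs, and also between a and b libraries. Untreated replicates 1 and 2, from 1 run, had Ighd2-3 at 6.93% and 6.61%, and replicates 3 and 4, from another, had 18.3% and 13.1%. Ighd2-6 was at 3.26% and 3.06% in the former and 1.76% and 1.68% in the latter. With IAA the same replicates had Ighd2-3 at 8.31%, 7.53%, 16.6% and 13.3%. Within each run the family was higher with IAA, at 31.5% against 25.1% and 39.6% against 34.4% (2 replicates each).

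In the CTCF-tag line no segment of 74 was called (0%) with limma, and 4 segments, all of them members, had an unadjusted p under 0.05. The 29.3-kb segment had the lowest p, with a log2 difference of 0.63 (SE 0.18, adjusted p = 0.176) and values of 1.40%, 0.990%, 1.14% and 1.21% against 2.22%, 1.63%, 1.64% and 1.84% with IAA. With the replicate number as a block all 8 members rose, from 0.32 (SE 0.0378, adjusted p = 2.05e-06) at Ighd2-3 to 0.63 (SE 0.058, adjusted p = 2.52e-07) at the 29.3-kb segment, and over all 74 segments 10 rose and 2 fell. Each same-numbered pair had a higher family share with IAA, at 27.9% and 36.4%, 17.1% and 24.1%, 20.1% and 27.4%, and 20.5% and 26.2%. All of these replicates came from 1 run.

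In the CTCF degron line, where IAA removes CTCF, 5 of 8 members rose as a share of all junctions, against 87.1% of the 70 segments tested rising, 1.43% falling and 88.6% called. Ighd2-7 rose by 0.77 (SE 0.239, adjusted p = 0.00252), from a range of 0.385% to 0.861% (6 replicates) to one of 0.932% to 1.40%, with no overlap. Ighd2-6 rose by 0.75 (SE 0.198, adjusted p = 0.000398), from 1.68% to 3.20% untreated to 3.34% to 4.88% with IAA, again with no overlap. The 29.3-kb segment rose by 0.64, the 19.2-kb segment by 0.57 and the 39.0-kb segment by 0.54. The 34.3-kb segment was at 0.09 (SE 0.223), the 24.6-kb segment at 0.24 (SE 0.206) and Ighd2-3 at 0.30 (SE 0.192), none called.

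The median change was 0.56 over the members and 2.76 over all segments tested, most of which were VH segments. Within the D array all 8 rose, by 0.50 at the 34.3-kb segment to 1.19 at Ighd2-7, where 66 of 70 segments rose, and the family went from 22.5% ± 6.40 to 39.4% ± 5.21 of the D array (n = 6 each), without overlap. Ighd1-1 took 53.0% to 72.7% of all junctions without IAA and 23.1% to 34.2% with it. On the scale of the median segment all 8 members fell, the median over all segments was 0.43, and 26 segments rose and 20 fell, against 61 and 1. Without the 2 IAA replicates in which a library's label names no IAA (both libraries of replicate 5 and the a library of replicate 4), 4 members rose, and 57 of 67 segments did. The IAA effect on a member was not called different from that in the parental line for any of the 8 on the scale of all junctions, where 66.7% of 63 segments were higher, 1.59% lower and 68.3% called. None of the members, and 44 of all segments, had an unadjusted p under 0.05 with limma. The largest estimates were 0.44 (SE 0.285, adjusted p = 0.163) for Ighd2-7, 0.40 (SE 0.23, adjusted p = 0.118) for Ighd2-6 and -0.46 (SE 0.284, adjusted p = 0.14) for the 34.3-kb segment, which was called lower without untreated CTCF degron replicate 5. On the D-array scale 4 were called higher, where 53 of 63 segments were, and on the median-segment scale 6 lower, with 31 segments higher and 10 lower in all.

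In the Rad21 degron line, where IAA removes a cohesin subunit, family joins were less frequent with IAA. The family was at 14.7%, 20.1% and 25.8% of all junctions with IAA and 35.4%, 34.3% and 31.2% without, the groups not overlapping. Same-numbered replicates came from the same run, and the differences within the 3 runs were -20.7, -14.2 and -5.38 percentage points. Ighd4-1, the segment nearest to JH, took 57.6%, 61.8% and 50.2% with IAA and 12.7%, 16.7% and 14.1% without. Ighd1-1 took 2.82%, 5.38% and 6.86% with IAA and 45.5%, 43.1% and 48.2% without.

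Of the members, 2 fell, where 57.9% of 19 segments fell, 5.26% rose and 63.2% were called in either direction. The 39.0-kb segment fell by 1.35 (SE 0.44, adjusted p = 0.0135), from 2.05%, 1.31% and 1.65% to 0.387%, 0.475% and 1.49%, the last of these above the lowest untreated replicate. Ighd2-6 fell by 1.19 (SE 0.438, adjusted p = 0.02), from 5.50%, 5.66% and 4.79% to 1.71%, 2.77% and 2.45%, with no overlap. The other 6 had estimates of -0.26 (the 24.6-kb segment) to -0.93 (the 29.3-kb segment) with SE of 0.443 to 0.603, and the lowest count behind a member in a replicate was 2 junctions.

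The count of calls rested on single replicates. It was 0 without untreated replicate 1, 1 without untreated replicate 2 or 3 and 6 without IAA replicate 3, which had the deepest library of its group and the highest family share. With all replicates 57.9% of the 19 segments tested fell. The counts are of members alone and do not set them apart from other segments. The correlation of the log2 ratio with distance was -0.00379 over the 8 positions, given as a description. The limma estimates of the members had SE of 0.438 to 0.603. With IAA the 24.6-kb segment was at 5.52% in replicate 1 and at 2.53% and 2.89% in the others. A dependence on distance was not tested. On the D-array scale the same 2 members fell, and on the median-segment scale none was called, with 1 segment higher and 3 lower in all. The IAA effect was lower than in the parental line for 6 members, by 1.05 (Ighd2-3) to 1.82 (the 39.0-kb segment), where 60% of 25 segments were lower, 4% higher and 64% called. No member was called in this contrast on the median-segment scale, with 4 segments higher and 2 lower in all.

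With IGCR1 deleted, the difference made by IAA in the family's share depended on the scale. It was at 26.2%, 26.3%, 20.4% and 21.6% of all junctions with IAA, overlapping the untreated 18.5%, 20.6%, 20.4% and 21.5%. It was 24.7% against 20.2% within the run that held 3 replicates of each treatment and 20.4% against 20.4% within the other. The 19.2-kb segment rose by 0.58 (SE 0.184, adjusted p = 0.0191), with 10.6%, 10.7%, 5.47% and 7.52% against 4.91%, 5.57%, 5.91% and 6.60%. It was the only member called, where 16.7% of 18 segments rose, 33.3% fell and 50% were called, and the call was lost when untreated replicate 1 or 2 or IAA replicate 1 or 2 was left out, as also with limma's trend in place of weights.

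Within the D array the family was lower with IAA, at 28.9% ± 2.64 against 43.4% ± 1.40 (n = 4 each), and with IGCR1 in place it was 24.1% ± 5.399 against 35.1% ± 2.26 (n = 3 each). On this scale 5 members fell with IAA in the deleted line: the 39.0-kb segment by 1.18, the 34.3-kb segment by 0.97, Ighd2-6 by 0.94, the 24.6-kb segment by 0.82 and Ighd2-3 by 0.54. The 19.2-kb segment was at -0.22 (SE 0.154) there, and over all segments 1 rose and 11 fell. Ighd4-1 was at 52.9% to 55.0% of all junctions with IAA and 11.6% to 16.9% without. Compared with the Rad21 degron line with IGCR1 in place, the IAA effect was higher for 4 members on the scale of all junctions, where 27.8% of 18 segments were higher, 11.1% lower and 38.9% called: the 29.3-kb segment by 1.49 (SE 0.468), the 19.2-kb segment by 1.42 (SE 0.368), Ighd2-3 by 1.10 (SE 0.325) and Ighd2-6 by 1.08 (SE 0.324). On the D-array scale and on the median-segment scale none of the 8 was called, and 4 segments were lower and 0 higher on each.

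**Figure D3:**
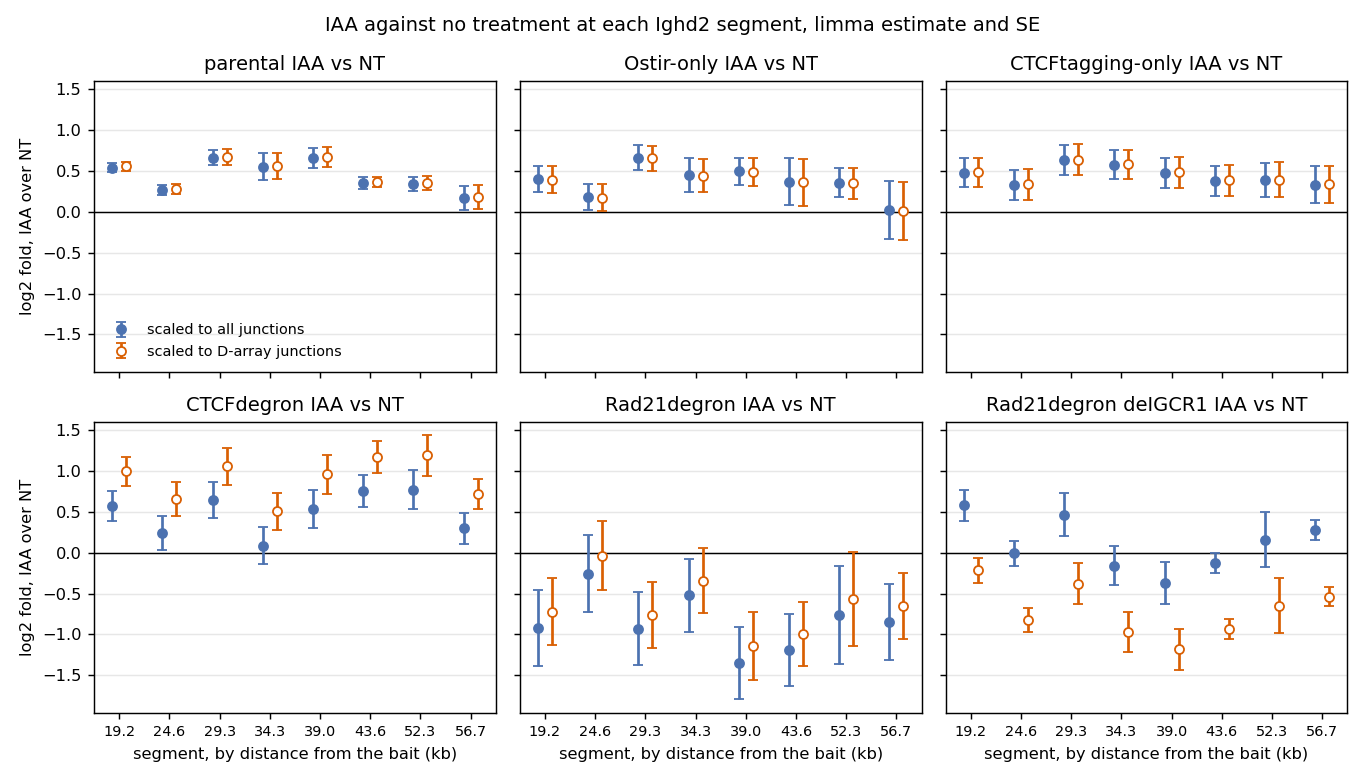
IAA against no treatment at each Ighd2 segment, as the limma log2 fold change (vertical axis) by distance from the bait (kb), 1 panel per line. Points are estimates and bars their SE, filled for the scale of all junctions and open for the D-array scale. Both scales nearly coincide in the parental, Ostir1 and CTCF-tag lines. The open points lie above the filled ones in the CTCF degron line and below them in the IGCR1-deleted line.

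The joins themselves were described from the reads at the 8 members, by the bases lost from the coding end and the bases added between D and JH4. In untreated parental cells 39.1% ± 1.84 of joins kept the coding end exactly as the segment has it, and 14.2% ± 3.40 had lost over 5 bases (n = 4). Of bone marrow joins, 89.9% ± 0.442 (n = 6) had inserted bases. The enzyme TdT, which pro-B cells express, can add bases of this kind. The source of the inserted bases was not tested. Minus-orientation joins, in which the D segment is joined the other way round, made up 0.0699% of the family's joins (719 of 1029292).

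Joins made with IAA in the Rad21 degron line less often had insertions or a loss of over 5 bases. Inserted bases were found in 59.8%, 63.0% and 71.1% of joins with IAA and 85.2% to 85.5% without. Loss of over 5 bases was found in 9.19% ± 2.18 with IAA and 20.2% ± 0.513 without (n = 3 each). Joins at the exact end did not follow this, at 30.5%, 52.0% and 42.0% with IAA and 33.9% to 35.0% without. The IGCR1-deleted line had insertions in 60.4% to 69.98% with IAA and 83.6% to 87.2% without, and loss of over 5 bases in 11.1% ± 4.89 and 22.3% ± 2.75 (n = 4 each). In both lines the groups did not overlap in insertions or in loss of over 5 bases.

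Insertions also moved with the sequencing run within single groups. Untreated parental replicates had 79.4% and 79.8% in 1 run and 58.2% and 55.6% in another. Untreated Ostir1 replicates had 80.9% and 79.7% in 1 run and 33.6% and 36.2% in the other, and Ostir1 replicates with IAA 81.2% and 81.0% against 28.5% and 28.3%. The run with few insertions was the same in both lines, and it is also the run in which Ighd2-3 was high. Each run of the Rad21 degron line held both treatments, and the lower value lay with IAA in each. The part of depth in these differences was not tested.

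**Figure D4:**
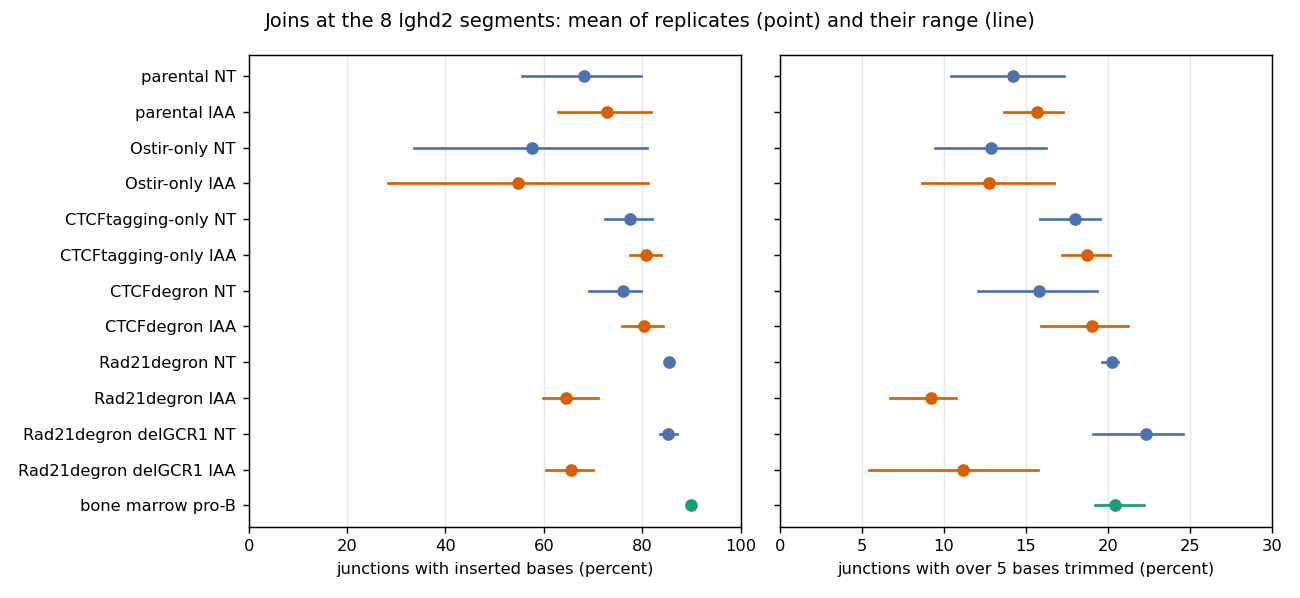
Joins at the 8 Ighd2 segments with inserted bases (left, percent) and with over 5 bases trimmed from the coding end (right, percent), by group. Points are means of replicates and lines their range. Both IAA groups of the Rad21 degron lines lie below their untreated groups. The widest ranges on the left are those of the Ostir1 line, and the widest on the right is that of the IGCR1-deleted line with IAA.

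Reads that join the bait to a VH segment can still show which D lies between them, since the D is then read as the stretch between bait and VH. A D was called where at least 9 bases of that stretch matched D coding bases of only 1 of the classes compared. This was possible in 43.8% to 55.8% of VH joins as group means, and the 29.3-kb and 39.0-kb segments cannot be told apart by it. Ambiguous joins were left out of the shares, and their number varied between groups. There were 1299 beside 5815 called in untreated parental replicate 3, and 615 beside 1040 in untreated CTCF degron replicate 5. Untreated replicate 1 of the IGCR1-deleted line had 187 beside 3095. Which D they held is not known, and their part in the shares below was not tested. In untreated parental cells members made up 73.7% ± 1.61 of the D segments called inside VH joins and 26.8% ± 0.998 of D-to-JH4 joins (n = 4). Ighd1-1 made up 19.5% ± 0.837 of the former and 65.7% ± 0.229 of the latter.

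In bone marrow the family was at 78.9% ± 1.31 inside VH joins and 61.3% ± 1.58 in D-to-JH4 joins (n = 6). In the CTCF degron line it was 52.9% ± 12.7 and 22.5% ± 6.44 without IAA, and 65.2% ± 5.19 and 39.5% ± 5.23 with it (n = 6). In the untreated Rad21 degron line it was 68.2% ± 0.402 and 35.1% ± 2.26 (n = 3), and with IGCR1 deleted 79.6% ± 1.72 and 43.3% ± 1.31 (n = 4). Only 3 VH joins were found in the Rad21 degron line with IAA, and none of them gave a call. With this match, the family's mean share was higher inside VH joins in each group with calls.

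The difference depended on the length of the match, and in bone marrow its direction did too. With 12 bases the family was at 51.7% ± 4.74 inside VH joins in untreated parental cells, still above every D-to-JH4 value of that group, and at 59.8% ± 1.67 in bone marrow, below the 61.3% of D-to-JH4 joins there, where the range of 57.3% to 61.4% overlapped that of D-to-JH4 joins. The ranges also overlapped in both treatments of the CTCF-tag and CTCF degron lines. The stretch between bait and VH was never longer than 30 bases in these files and reached 26 or more in 1.97% of untreated parental and 8.89% of bone marrow VH joins, so that joins with a longer stretch are missing. The part of this limit in the difference was not tested.

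**Figure D5:**
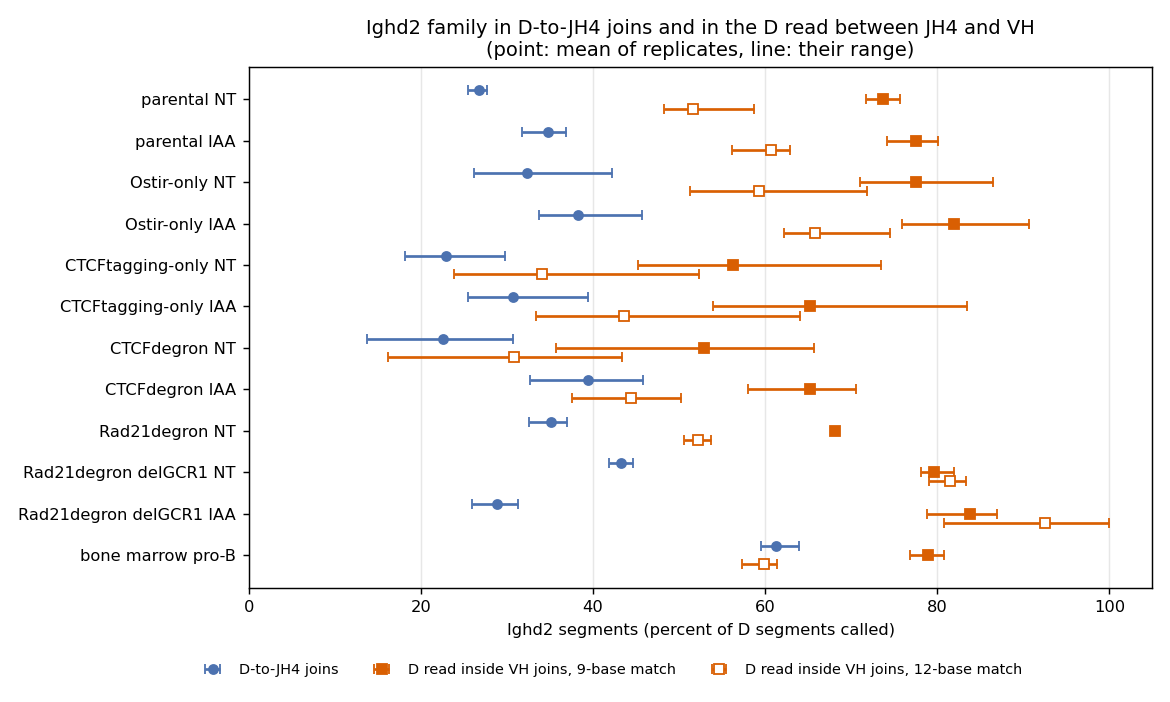
Share of Ighd2 segments among D segments called (percent), in D-to-JH4 joins (circles) and in the D read between JH4 and VH with a match of 9 bases (filled squares) or 12 bases (open squares), by group. Points are means of replicates and lines their range; the filled squares lie right of the circles in all 12 groups shown.

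Across the 13 groups, the members varied together loosely: Pearson's correlation of log2 mean shares was -0.244 to 0.933 over the 28 pairs, with a median of 0.586. Among segments outside the family with junctions in every group, of which there were 8, the one most like the family total was a D segment at position 114719358 nearest in sequence to Ighd1-1 (r = 0.787 over 13 groups). It lies between Ighd2-6 and Ighd2-7. The next were a D segment at 114713225 nearest to Ighd5-7 (0.315) and Ighv2-3 (0.304). Groups that share controls, runs or lines are not independent points, and these values are a description.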

How the data were processed

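The authors' deposited files list 1 aligned junction read per row, with chromosome, position, orientation, read and bait coordinates (other values, read as positions), made by linear-amplification translocation sequencing. Per the submitters' processing notes the tools include Bowtie2 and the build mm9. The positions lie on a hybrid Igh sequence, and versions are not given in the sources used here. From these rows, junctions within 100 bp of a segment were tallied here, a and b libraries summed per replicate, and 12 off-target lists were kept apart. Segments with a mean of at least 10 junctions per replicate entered limma 3.58.1 in R 4.3.3 (voom weights with a pseudocount of 0.5, lmFit, eBayes), with Benjamini-Hochberg adjustment over all segments tested and a threshold of 0.05, over the groups of each comparison. Scales were all junctions, or in alternatives the D array or median-of-ratios factors. The fit was tested on simulated data. D reads inside VH joins needed a match of 9 bases (12 as alternative). Consensus sequences of 150 bases were compared with mm9 by blastn 2.17.0. Depth was 1263 to 231023 junctions per replicate. Other steps used Python 3.11.15 with pandas 2.3.3. Same-numbered replicates deviated together (every correlation over 0.1) in the Ostir1 line, at 0.657 to 0.869, and in the CTCF-tag line, at 0.496 to 0.847, where they also shared a run. In the Ostir1 line, IAA replicates 1 and 3 correlated better with an untreated replicate of another number. Those correlations were 0.852 and 0.763, against 0.70 and 0.657 with the same number. In the CTCF-tag line the same number gave the highest correlation for each replicate. All 8 members were fitted in each comparison, but not all of them are named with values in each. Ighd4-1 and Ighd1-1 are named where a result turns on them, and the 3 segments most like the family share are named as well. Members and lists were chosen with earlier results of these data known.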

Additional observations from a re-analysis of the deposited data

Results flagged for a closer look

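Of 110 sets of replicates, 3 had a replicate that stood apart from the others by Dixon's test, which chance gives in about 1 in 20 sets. The 29.3-kb segment was at 1.36% in untreated Ostir1 replicate 3, with the others at 1.14% to 1.16%. Ighd2-3 was at 7.24% in untreated CTCF-tag replicate 1, with the others at 4.04% to 4.31%, and at 9.25% in IAA replicate 1 of the same line, with the others at 5.02% to 5.21%.

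The IAA effect on a member differed between lines in 10 tests of the difference with limma, on the scale of all junctions. Between the Rad21 degron and the parental line, 64% of 25 segments were called, 60% lower. Between the IGCR1-deleted and the undeleted Rad21 degron line, 38.9% of 18 segments were called, 27.8% higher. No member was called in either contrast on the median-segment scale, nor in the latter on the D-array scale. Between the Rad21 degron and the parental line it differed on the log2 scale by -1.49 at the 19.2-kb segment, -1.65 at the 29.3-kb segment, -1.14 at the 34.3-kb segment, -1.82 at the 39.0-kb segment, -1.56 at Ighd2-6 and -1.05 at Ighd2-3. Between the Rad21 degron line with IGCR1 deleted and the one with IGCR1 it differed by 1.42 at the 19.2-kb segment, 1.49 at the 29.3-kb segment, 1.08 at Ighd2-6 and 1.10 at Ighd2-3.

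The lists labelled off-target, which no comparison used, held a mean of 7.33 junctions at the members in the CTCF degron with IAA (4 to 14 over 6 lists) and 3.5 in the parental line with IAA (2 to 5 over 4 lists).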

How the results depend on the processing

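The counts of calls in this section are of members alone, without the share of all segments beside them. In the main fits 0% to 98.6% of the segments tested were called, depending on the comparison. The counts therefore do not set the members apart from other segments. On the median-of-ratios scale the members called numbered 0 for IAA in the Rad21 degron, 2 in its IGCR1-deleted form, 3 in the parental line, 4 for the IGCR1 deletion, 5 for untreated CTCF degron against parental cells, 6 for the CTCF degron minus parental effect, and 0 for the differences Rad21 degron minus parental and IGCR1-deleted minus Rad21 degron. Signs turned on this scale for IAA in the CTCF degron, with 8 members lower: -1.78, -2.11, -1.73, -2.26, -1.82, -1.60, -1.58 and -2.07 from near to far. They also turned at 5 members for bone marrow against parental cells, where 6 were called lower, both end members among them: -1.28 at 24.6 kb, -0.35 at 29.3 kb, -0.39 at 34.3 kb, -1.22 at Ighd2-6 and -0.17 at Ighd2-7, the last not called. The CTCF degron minus parental effect turned at 19.2 kb and Ighd2-3 (-0.77 and -0.73), and the Rad21 degron minus parental effect to 0.060, 0.35 and 0.53.

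On the D-array scale the IGCR1-deleted line with IAA had 5 members lower, with the 19.2-kb segment at -0.22 and Ighd2-3 at -0.54. The deletion itself had 4 higher, with members at 0.20, 0.56, 0.52, 0.19, 0.45, 0.75 and 0.068. Bone marrow had the end members at 0.0076 and 0.030. The CTCF degron with IAA had 8 called, its difference from the parental line 4, and the IGCR1-deleted minus Rad21 degron difference 0.

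With no minimum of junctions, 4 members were called for IAA in the Rad21 degron, 0 in the Ostir1 line and 1 for the IGCR1-deleted minus Rad21 degron difference. With all groups in 1 fit the counts were 4 in the Rad21 degron, 0 in its IGCR1-deleted form, 2 in the parental line, 0 in the Ostir1 line, 3 in the CTCF-tag line and 3 for the IGCR1 deletion. With limma's trend in place of weights they were 0 in the IGCR1-deleted line with IAA and 0 for untreated CTCF degron against parental cells. With a prey of at least 80 bases they were 1 in the Rad21 degron, 3 in its IGCR1-deleted form and 3 in the Ostir1 line. With the sequencing run as a block they were 2 in the IGCR1-deleted line and 6 in the Ostir1 line. With the replicate number as a block they were 7 in the Ostir1 line and 8 in the CTCF-tag line; the counts with the block were 2, 1, 5 and 8 in the Rad21 degron, IGCR1-deleted, CTCF degron and parental lines, where the numbers were not shown to pair the samples.

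With identical junctions counted once, 1 member was called in the parental line with IAA, 0 in the Ostir1 line and 2 for untreated CTCF degron against parental cells, and Ighd2-7 turned to -0.13 for untreated Rad21 degron against parental cells. The family difference was then 12.3 points for bone marrow (29.4 of the D array) and 6.44 for the untreated Rad21 degron (4.54 of the D array), and the highest over the lowest member 7.32 in the parental and 7.21 in the Ostir1 line with IAA. Joins at the exact end were 36.7% and 35.9% in the parental line without and with IAA, 35.4% and 35.9% in the Ostir1 line, 35.97% in the CTCF-tag line with IAA and 33.9% in the untreated Rad21 degron, where insertions were 85.9% and loss of over 5 bases 20.8%; the latter was 17.5% in the parental line with IAA. With a prey of at least 80 bases the family difference was 8.35 points in the IGCR1-deleted line with IAA and 13.3 for bone marrow, with a ratio of 1.78 there.

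With a 12-base match the family's share inside VH joins, without and with IAA, was 51.7% and 60.6% in the parental line, 59.3% and 65.8% in the Ostir1 line, 34.1% and 43.6% in the CTCF-tag line, 30.8% and 44.4% in the CTCF degron, and 81.5% and 92.6% with IGCR1 deleted. It was 52.2% in the untreated Rad21 degron and 59.8% in bone marrow.

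Leaving out each replicate in turn gave 0 to 6 members called for IAA in the Rad21 degron, 0 to 2 in its IGCR1-deleted form, 4 to 6 in the CTCF degron, 5 to 7 in the parental line, 0 to 1 in the Ostir1 line, 5 to 7 for untreated Rad21 degron against parental cells, 0 to 1 for CTCF degron minus parental, 6 to 7 for Rad21 degron minus parental and 3 to 6 for IGCR1-deleted minus Rad21 degron. It gave 0 in the CTCF-tag line, 7 for the IGCR1 deletion, 8 for bone marrow and 1 for untreated CTCF degron against parental cells. The family difference then lay between -16.2 and -10.7 points for IAA in the Rad21 degron and between -5.11 and -2.17 for untreated CTCF degron against parental cells. Depth limits the IAA groups of both Rad21 degron lines most, and the cause of the changes above was not tested.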
